A study of Mus musculus with 12 samples.

Results

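Mouse liver RNA sequencing was used to follow 10 genes of iron handling: the hepcidin genes Hamp and Hamp2, the ligand Bmp6, transferrin (Trf), the transferrin receptors Tfrc and Tfr2, the ferritin subunits Fth1 and Ftl1, the exporter Slc40a1 and the importer Slc11a2. They were chosen by name, as the rows of the count table whose Ensembl identifiers carry these 10 symbols, and make up 10 of 56923 rows. All 10 had enough counts to be tested. The 12 libraries came from livers of wild-type C57BL/6J mice aged 6 weeks at the start, all of which were injected intraperitoneally with carbon tetrachloride (CCl4), a liver toxin used to cause fibrosis, as 200 μL of a 7.5% solution in olive oil, 2 times a week for 6 weeks. Controls (n = 3) had CCl4 alone, and the low-, medium- and high-dose groups (n = 3 each) also had curcumin by gavage every day for 2 weeks, at 25, 50 and 100 mg/kg in that order. Mice without CCl4 were not analysed here, so every value describes injured liver. Mice were housed 3 to a cage, and which mice shared one is not stated. A gavage without curcumin is not mentioned for the controls.

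Hepatocytes make hepcidin, a small peptide hormone that blocks ferroportin, the only known cellular iron exporter, and so lowers the release of iron into blood. Its transcription rises with iron through the BMP and SMAD pathway, for which Bmp6 from sinusoidal endothelial cells is a main ligand, and with inflammation through interleukin-6 and STAT3. Transferrin carries iron in plasma, Tfrc takes it up, Tfr2 senses its saturation, and ferritin stores iron inside cells. When cell iron is low, iron regulatory proteins bind hairpins called iron-responsive elements. This blocks translation when the hairpin lies in the 5′ UTR and protects the transcript when it lies in the 3′ UTR, so ferritin and ferroportin can be controlled with no change in their RNA.

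The hairpins were looked for in 1 GENCODE M21 transcript per gene, as the loop CAGTG after a C and 5 further bases, with 1 free letter after the loop and 5 paired stem bases (G with T allowed). They are shown because the 3 genes with a 5′ match can be controlled apart from their RNA level, which is all that was measured here. Capitals mark the loop, and each run is 29 bases.
Fth1 5′ UTR: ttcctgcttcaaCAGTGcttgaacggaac
Ftl1 5′ UTR: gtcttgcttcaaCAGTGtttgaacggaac
Slc40a1 5′ UTR: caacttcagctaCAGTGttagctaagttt
Tfrc 3′ UTR site 1: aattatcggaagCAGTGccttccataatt
Tfrc 3′ UTR site 2: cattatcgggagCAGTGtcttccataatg
Tfrc 3′ UTR site 3: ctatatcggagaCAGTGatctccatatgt
Tfrc 3′ UTR site 4: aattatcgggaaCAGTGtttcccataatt
Thus Fth1, Ftl1 and Slc40a1 had 1 match each and Tfrc had 4, against 272 of 21821 coding transcripts (1.25%) with a match anywhere. The transcripts used for the other 6 genes held no match to this pattern. An element in another transcript of a gene, or with another form of stem, would be missed.

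The 2 hepcidin genes of the mouse lie beside each other on chromosome 7 and their transcripts are 93.0% identical over 417 aligned bases. Hamp encodes the iron hormone, whereas the product of Hamp2 has not shown that effect on iron in mice. The 250 bases before each start site are shown to compare the sites that are known to carry the iron and inflammation signals to Hamp. They are RefSeq sequences on GRCm38.p6, minus strand, at chr7:30944030-30944279 for Hamp and chr7:30924182-30924431 for Hamp2. Capitals mark GGCGCC, the core of the BMP-responsive element, and TTCTTGGAA, a STAT site.
Hamp: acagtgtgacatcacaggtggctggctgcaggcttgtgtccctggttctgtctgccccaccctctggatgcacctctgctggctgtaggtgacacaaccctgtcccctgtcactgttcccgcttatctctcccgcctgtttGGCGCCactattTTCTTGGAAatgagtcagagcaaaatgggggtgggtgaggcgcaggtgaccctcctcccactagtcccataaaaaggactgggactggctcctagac
Hamp2: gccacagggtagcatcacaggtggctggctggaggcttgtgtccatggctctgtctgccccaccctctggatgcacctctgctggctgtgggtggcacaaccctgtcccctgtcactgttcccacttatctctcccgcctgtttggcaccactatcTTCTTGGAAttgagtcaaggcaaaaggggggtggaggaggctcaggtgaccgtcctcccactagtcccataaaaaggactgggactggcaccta
The STAT letters occurred in both, starting at -97 in Hamp and at -94 in Hamp2. GGCGCC occurred in Hamp, starting at -109, and the aligned bases in Hamp2 were GGCACC, a G4A substitution counted from 1 at the first of the 6 bases. Outside and inside these sites, 91.9% of 247 aligned bases were identical. On either strand of 32851 promoter windows of 300 bases, GGCGCC occurred in 11.9% and TTCTTGGAA in 0.417%. A match in letters is no evidence of binding.

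Levels are given as CPM, a gene's counts relative to the TMM-scaled library size. Library totals ran from 36015134 to 70376474 counts, and 30.3% to 64.7% of them fell on the 37 mitochondrially encoded genes. A further 10.9% to 23.3% fell on 11 near-identical nuclear copies of these genes. The counts outside both sets ran from 5180318 in low replicate 1 to 36377767 in high replicate 1, so usable depth differed more than the totals. The mitochondrially encoded share averaged 56.9 ± 12.1% in low-dose, 54.7 ± 6.01% in medium-dose and 45.7 ± 17.5% in high-dose libraries, and 61.2 ± 2.81% in controls (SD, n = 3 each). It was below 50% in 4 libraries, low replicate 3, medium replicate 1 and high replicates 1 and 3, and those 4 also had the highest summed levels of 10 hepatocyte markers, 27345 to 47326 CPM, against 5927 to 12669 CPM in the other 8. All 10 hepatocyte markers had counts over the 12 libraries together. So did all 7 neutrophil and all 7 erythroid markers, so having counts does not test the tissue label. In whole liver, fewer cells of a type and less RNA per cell cannot be told apart.

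Per kilobase of transcript, Ftl1 was highest at 755 ± 412 CPM per kb (SD, n = 12), followed by Hamp at 609.9 ± 394, Trf at 374 ± 242, Hamp2 at 329.9 ± 377 and Fth1 at 244 ± 138 CPM per kb. The order among these 5 was not firm: each stood above the next in 9, 9, 10 and 5 of 12 libraries. Below them the levels separated in all 12 libraries, with Fth1 above Tfr2 at 36 ± 10.5 CPM per kb, Tfr2 above Slc40a1 at 9.16 ± 0.97, and Slc40a1 above Slc11a2 at 1.97 ± 0.256. Slc11a2 stood above Tfrc, at 1.84 ± 0.571 CPM per kb, in only 7 libraries. Bmp6 was the lowest at 0.125 ± 0.0949 CPM per kb, below Tfrc in all 12.

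Hamp varied widely within every group. Its level was 451, 107 and 169.8 CPM in controls, 151, 61 and 347 CPM at the low dose, 561, 234 and 66.6 CPM at the medium dose and 364, 141 and 346 CPM at the high dose. Every dose group overlapped the controls, and the highest library, medium replicate 1, stood 9.2-fold above the lowest, low replicate 2. The log2 fold change against control was -0.38 ± 0.80 (SE) at the low, 0.24 ± 0.80 at the medium and 0.23 ± 0.80 at the high dose, with adjusted p of 0.949, 0.997 and 0.92 (edgeR quasi-likelihood test). The 95% interval at the high dose ran from -1.50 to 1.96, so these libraries leave room for a change of more than 2-fold either way.

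On the TMM scale Hamp2 spread further than 95% of the 16839 genes tested, with an SD of log2 CPM of 1.44 over the 12 libraries against a median of 0.53 for all genes. Relative to totals without mitochondrial genes and their nuclear copies it spread further than 83.1% of genes, and relative to library totals 99.1%. Hamp2 stood at 90.8, 61.2 and 53.4 CPM in controls, 73.5, 36.4 and 151 CPM at the low dose, 416, 32.6 and 49.3 CPM at the medium dose and 531, 23.5 and 211 CPM at the high dose. The high-dose group held both the highest library, replicate 1, and the lowest, replicate 2, which differed 22.6-fold. The log2 fold change was 0.35 ± 1.02 at the low, 1.28 ± 1.03 at the medium and 1.90 ± 1.05 at the high dose (adjusted p = 0.962, 0.997 and 0.441, edgeR). The slope over the range of 100 mg/kg was 1.98 ± 0.91 on the log2 scale, with an unadjusted p of 0.0457 and an adjusted p of 0.444 (edgeR). Without high replicate 1 the slope was 1.05 (unadjusted p = 0.361, edgeR) and the high-dose log2 fold change 0.79.

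Bmp6 was near the limit of detection, with 3 to 125 counts per library. It stood at 0.277, 0.196 and 0.29 CPM in controls, 0.273, 0.223 and 0.496 CPM at the low dose, 0.914, 0.321 and 0.0467 CPM at the medium dose and 1.16, 0.329 and 0.856 CPM at the high dose. All 3 high-dose libraries lay above all 3 controls, whereas the low- and medium-dose libraries overlapped them. The log2 fold change was 0.42 ± 0.82 at the low, 0.75 ± 0.81 at the medium and 1.63 ± 0.81 at the high dose (adjusted p = 0.947, 0.997 and 0.413, edgeR), and the slope was 1.62 ± 0.68 (unadjusted p = 0.0314, adjusted p = 0.434, edgeR). Without high replicate 1 the slope was 1.23 (unadjusted p = 0.148, edgeR). The summed level of 9 sinusoidal endothelial markers was 79.7, 55.5 and 74.9 CPM in the high-dose libraries and 45.3 to 76.2 CPM in controls, ranges that overlap. That of 9 stellate cell and fibroblast markers was 255, 50.2 and 150.2 CPM in the high-dose libraries and 52.5 to 67.9 CPM in controls. Both sums had the same order of high-dose libraries as Bmp6. So did that of the hepatocyte markers, at 47326, 6284 and 29950.3 CPM, so this order was not particular to 1 of these cell types. The part of these cells in the Bmp6 values was not tested.

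**Figure D1:**
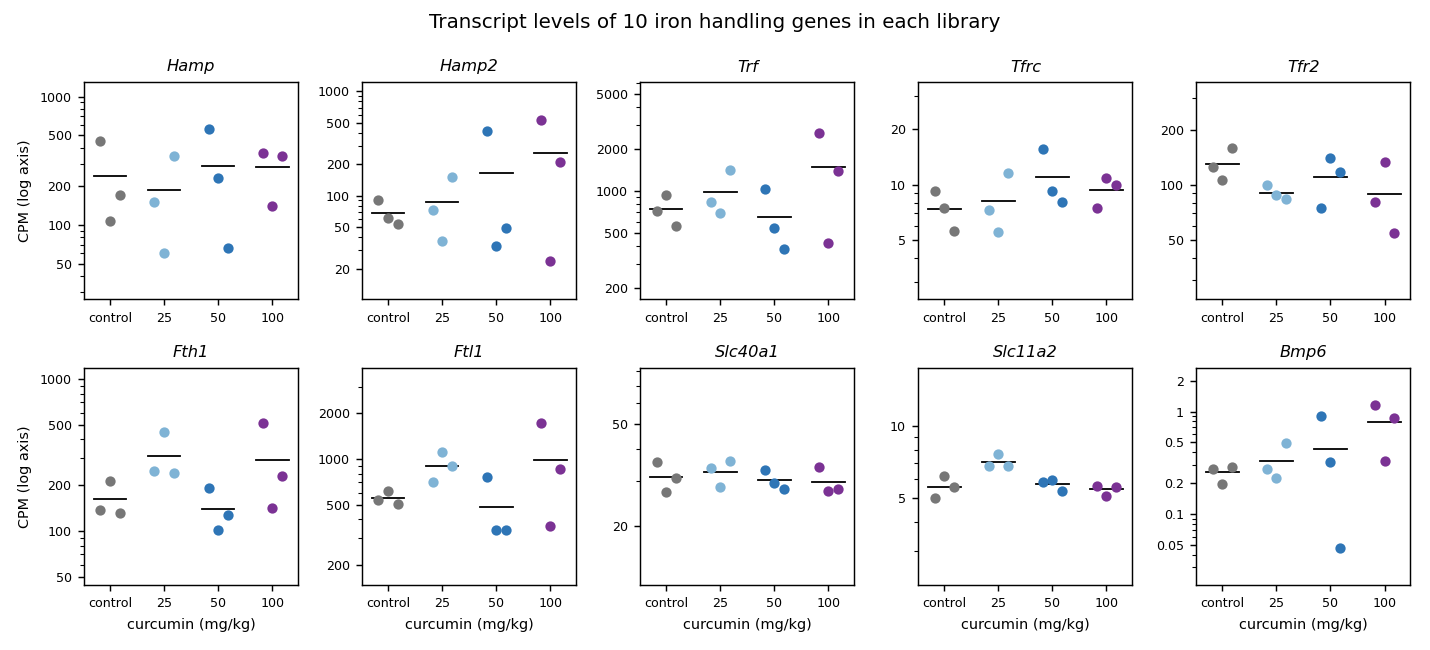
Levels of the 10 genes in each library, in CPM on log axes that differ between panels, for controls and for curcumin at 25, 50 and 100 mg/kg. Each point is 1 library and each line the group mean (n = 3): Hamp2 ran from 23.5 to 531 CPM within the high-dose group, while Slc40a1 stayed between 27.2 and 35.8 CPM over all 12 libraries.

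Transferrin was 719.9, 939.7 and 557 CPM in controls, 835, 688 and 1420.0 CPM at the low dose, 1033, 544 and 384 CPM at the medium dose and 2623, 420.1 and 1382 CPM at the high dose. Replicates 1 and 3 of the high dose lay above all controls and replicate 2 below them, so the groups overlapped. The log2 fold change at the high dose was 1.00 ± 0.62 (adjusted p = 0.491, edgeR), and 0.29 without high replicate 1.

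The 2 receptors had unlike levels and patterns. Tfrc, the uptake receptor that proliferating and iron-poor cells carry, was 9.26, 7.45 and 5.6 CPM in controls, 7.33, 5.56 and 11.6 CPM at the low dose, 15.5, 9.24 and 8.1 CPM at the medium dose and 7.45, 10.8 and 9.97 CPM at the high dose. All 3 libraries of the medium and of the high dose were above the control mean of 7.43 CPM, yet both groups overlapped the controls. Its log2 fold changes were 0.14 ± 0.33, 0.56 ± 0.33 and 0.34 ± 0.33 from low to high dose (adjusted p = 0.954, 0.997 and 0.659, edgeR). Tfr2, the hepatocyte sensor, was 126, 106 and 159 CPM in controls, 99.7, 87.7 and 83.9 CPM at the low dose, 74.9, 140.2 and 118 CPM at the medium dose and 80.6, 133 and 54.6 CPM at the high dose. Each of the 3 low-dose values was under the lowest control value, and the other 2 doses overlapped the controls. Its log2 fold changes were -0.52 ± 0.37, -0.23 ± 0.37 and -0.54 ± 0.37 from low to high dose (adjusted p = 0.86, 0.997 and 0.522, edgeR).

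The ferritin subunits, whose products build 1 shell together, varied in parallel. Fth1, the heavy chain that oxidizes iron, was 138, 214 and 132 CPM in controls, 246, 444 and 241 CPM at the low dose, 190.1, 102 and 127 CPM at the medium dose and 512, 141 and 230.3 CPM at the high dose. Ftl1, the light chain that helps form the mineral core, was 539, 616 and 507 CPM in controls, 703, 1117 and 895 CPM at the low dose, 760.2, 340.1 and 339.9 CPM at the medium dose and 1738, 360.4 and 859 CPM at the high dose. For both genes all 3 low-dose libraries lay above all 3 controls, while the medium and high doses overlapped them. The low-dose log2 fold change was 0.94 ± 0.49 for Fth1 and 0.71 ± 0.55 for Ftl1 (adjusted p = 0.823 and 0.875, edgeR), and at the high dose 0.87 ± 0.49 and 0.83 ± 0.55 (adjusted p = 0.45 and 0.51, edgeR). Without high replicate 1 the high-dose values were 0.21 for Fth1 and 0.14 for Ftl1. At the medium dose both were -0.21, so no order of dose was visible. Ftl1 has 6 near-identical genes in the table, which together had 3.11% of its count, and the treatment of reads that fit several of them is unknown.

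On the TMM scale the 2 membrane transporters had the smallest spread of the 10 genes. Slc40a1, which encodes ferroportin, was 35.4, 27.2 and 30.7 CPM in controls, 33.5, 28.4 and 35.8 CPM at the low dose, 33, 29.4 and 27.8 CPM at the medium dose and 34, 27.4 and 27.9 CPM at the high dose. Its SD of log2 CPM was 0.15, and only 0.689% of the tested genes had a smaller one. This rests on the scale: relative to totals without mitochondrial genes and their nuclear copies 1.72% of genes had a smaller SD, and relative to plain library totals 33.2%. On library totals Tfr2 had the smallest SD of the 10, 0.47, against 0.57 for Slc11a2 and 0.64 for Slc40a1. The log2 fold changes were 0.07 ± 0.23, -0.05 ± 0.23 and -0.06 ± 0.23 from low to high dose, with 95% intervals that stayed between -0.56 and 0.56. Slc11a2, the importer DMT1, was 5.01, 6.18 and 5.6 CPM in controls, 6.83, 7.63 and 6.8 CPM at the low dose, 5.88, 5.95 and 5.39 CPM at the medium dose and 5.64, 5.12 and 5.59 CPM at the high dose. The low-dose libraries lay above all controls and the others overlapped them. Its low-dose log2 fold change was 0.34 ± 0.18 (adjusted p = 0.826, edgeR).

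**Figure D2:**
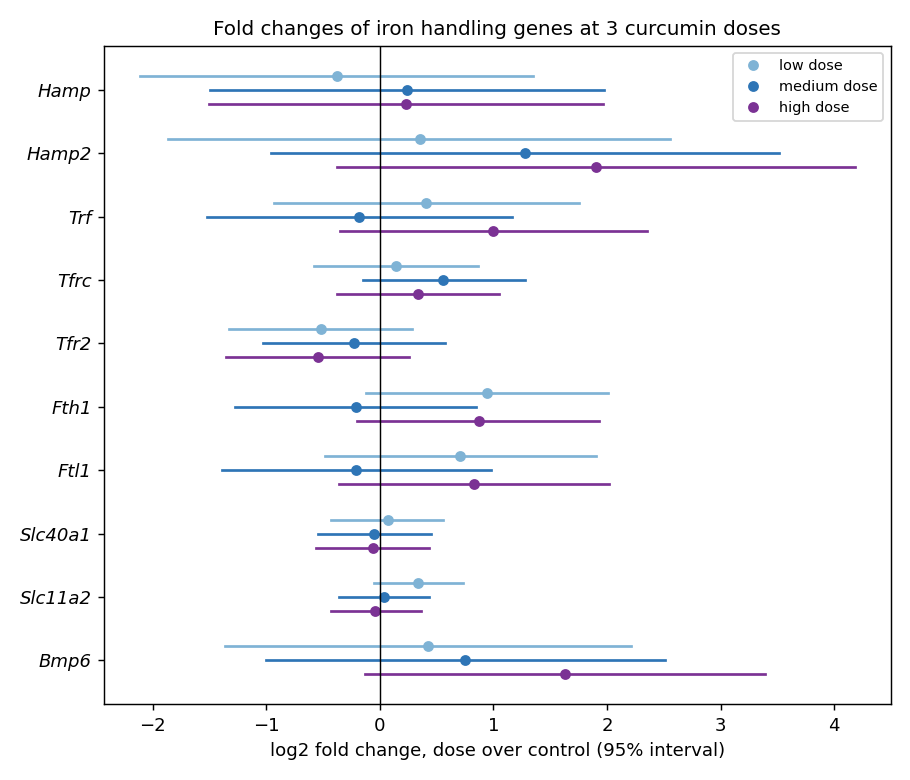
Log2 fold changes of the 10 genes at each dose over control, with 95% intervals from the fit across all genes (3 libraries a group). Every interval includes 0; they are widest for Hamp2, -0.38 to 4.18 at the high dose, and narrow for Slc40a1, -0.56 to 0.43.

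By edgeR with Benjamini-Hochberg adjustment over 16839 genes, 0 of the 10 genes passed an adjusted p of 0.05 at any dose or for the slope, and so did 0% of all genes. The smallest adjusted p among the 10 was 0.823 at the low, 0.997 at the medium and 0.413 at the high dose and 0.434 for the slope. At an unadjusted p under 0.05 the count was 0 of 10 at each dose, against 5.99%, 5.58% and 12.8% of all genes from low to high dose, and 2 of 10 for the slope (Hamp2 and Bmp6, both upward), against 11% of all genes, 6.51% upward and 4.49% downward. Among the 16839 genes DESeq2 called 32, 86 and 159 from low to high dose and 59 for the slope, and limma voom with library weights 0, 35, 224 and 0, and neither called any of the 10. The median log2 fold change of the 10 was 0.34, -0.01 and 0.59 from low to high dose, with 8, 5 and 7 of them above 0, while the median over all tested genes was 0.01, 0.02 and 0.03. Groups did not overlap for 4 of 10 at the low dose (Fth1, Ftl1 and Slc11a2 above, Tfr2 below), against 13.8% of all genes (7.41% above and 6.36% below). They did not overlap for 0 of 10 at the medium dose, against 14% (7.61% above and 6.38% below), and for 1 of 10 at the high dose (Bmp6, above), against 13% (6.47% above and 6.52% below). The 3 doses share their controls, and the members were chosen with results of these data known.

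Much of the spread ran with the mitochondrial share of the library. Hamp2, Trf and Bmp6 had their 4 highest values in the 4 libraries with a share below 50%, and Tfr2 had its 4 lowest there. Across the 12 libraries log2 CPM correlated with the share at r = -0.856 for Hamp2, -0.863 for Trf, -0.759 for Bmp6, -0.662 for Hamp, -0.648 for Ftl1 and 0.668 for Tfr2 (permutation p 0.00051, 0.00035, 0.00312, 0.0182, 0.0218 and 0.0173, and adjusted over the 10 correlations 0.00255, 0.00255, 0.0104, 0.0363, 0.0363 and 0.0363). Spearman's rho for the same 6 genes was -0.769, -0.72, -0.615, -0.685, -0.469 and 0.664, with adjusted permutation p of 0.0491, 0.0522, 0.0721, 0.0523, 0.181 and 0.0523, so only Hamp2 passed by both measures. Without the 2 libraries farthest from the median share, high replicates 1 and 3, r was -0.732, -0.668, -0.554, -0.68, -0.281 and 0.551, so that the relation of Ftl1 rests on those libraries. Such relations were common: the median absolute r over all 16839 tested genes was 0.501, and 11.6% of them had a larger absolute r than Hamp2, 10.8% than Trf, 23% than Bmp6 and 33.8% than Hamp. For Fth1, Tfrc, Slc40a1 and Slc11a2 r was -0.471, -0.379, -0.419 and 0.07 (rho -0.252, -0.469, -0.448 and 0.014), and neither measure passed, with adjusted permutation p from 0.17 to 0.974. Without the same 2 libraries r was -0.00693, -0.733, -0.581 and -0.137 for these 4 genes.

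**Figure D3:**
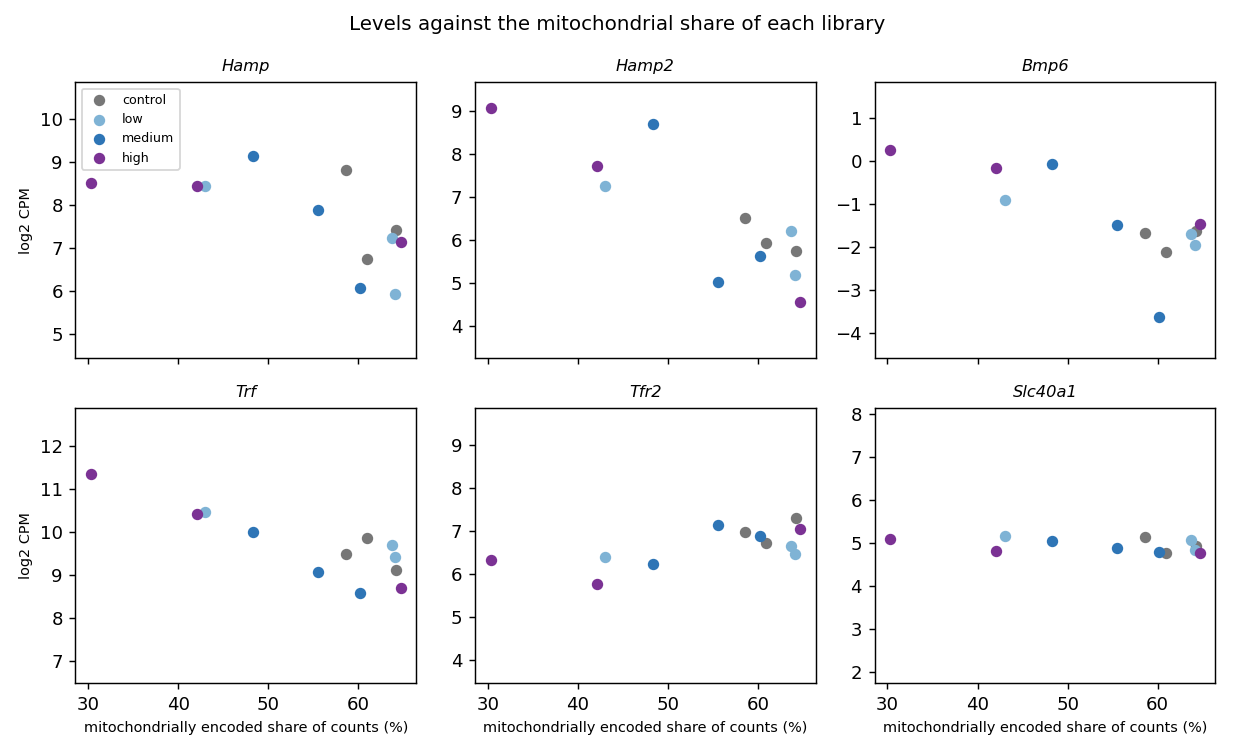
Level of 6 genes (log2 CPM, prior count 2) against the share of counts on mitochondrially encoded genes, 1 point per library, with the same vertical span in each panel. Hamp2, Trf and Bmp6 are highest in the 4 libraries below 50% and Tfr2 is lowest there. Slc40a1 has the smallest spread of the 6 (SD 0.15), with r of -0.419.

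With that share as a covariate, the high-dose log2 fold change turned to -0.97 for Hamp2, against 1.90 without it, to -0.88 for Hamp, against 0.23, to -0.45 for Trf, against 1.00, and to -0.20 for Ftl1, against 0.83. That of Bmp6 kept its sign at 0.38, against 1.63. The share was lower on average in the dose groups than in controls, so dose and share are partly confounded. In the 8 libraries with a share of at least 50%, a subset chosen after seeing the data that leaves only replicate 2 at the high dose, Hamp2 had a high-dose value of -1.55 (adjusted p = 0.447, edgeR, with the spread of that lone library taken from the other groups), while Bmp6 had 0.37 (adjusted p = 0.956, edgeR).

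**Figure D4:**
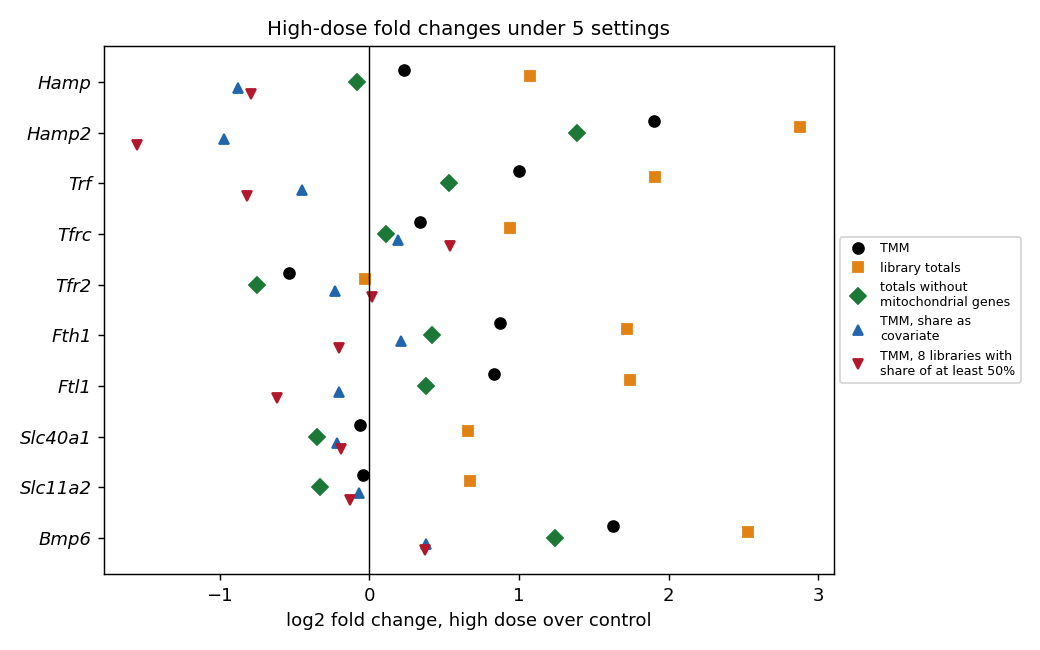
Log2 fold change of the 10 genes at the high dose over control under 5 settings: TMM scaling, plain library totals, totals without mitochondrial genes and their nuclear copies, TMM with the mitochondrial share as covariate, and the 8 libraries with a share of at least 50%. Hamp2 lies between -1.55 and 2.88 and Bmp6 between 0.37 and 2.53.

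Ratios between genes of the same library do not depend on its scale. The ratio of Hamp2 to Hamp counts was 0.201, 0.573 and 0.315 in controls, 0.486, 0.596 and 0.436 at the low dose, 0.741, 0.139 and 0.74 at the medium dose and 1.46, 0.166 and 0.611 at the high dose. The extremes were high replicate 1, the only library with more counts on Hamp2 than on Hamp, and medium replicate 2, which differed 10.5-fold. The mean log2 ratio differed from control by 0.60, 0.36 and 0.68 from low to high dose, with exact permutation p of 0.3, 0.8 and 0.6 (two-sided, n = 3 each, smallest possible 0.1; adjusted over 6 tests 0.8 each). With transcripts this alike, some reads of one gene may have been counted for the other. The counts of both genes summed had a log2 fold change of -0.19, 0.54 and 0.79 from low to high dose and a slope of 0.93, with adjusted p of 0.974, 0.997, 0.693 and 0.616 (edgeR). At the high dose this compares with 1.90 for Hamp2 and 0.23 for Hamp alone. The ratio of Ftl1 to Fth1 counts stayed between 2.52 and 4 in all 12 libraries, a 1.59-fold range, although each gene alone varied over 5-fold. Its log2 value differed from control by -0.23, -0.09 and -0.14 from low to high dose, with exact permutation p of 0.2, 0.7 and 0.5.

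**Figure D5:**
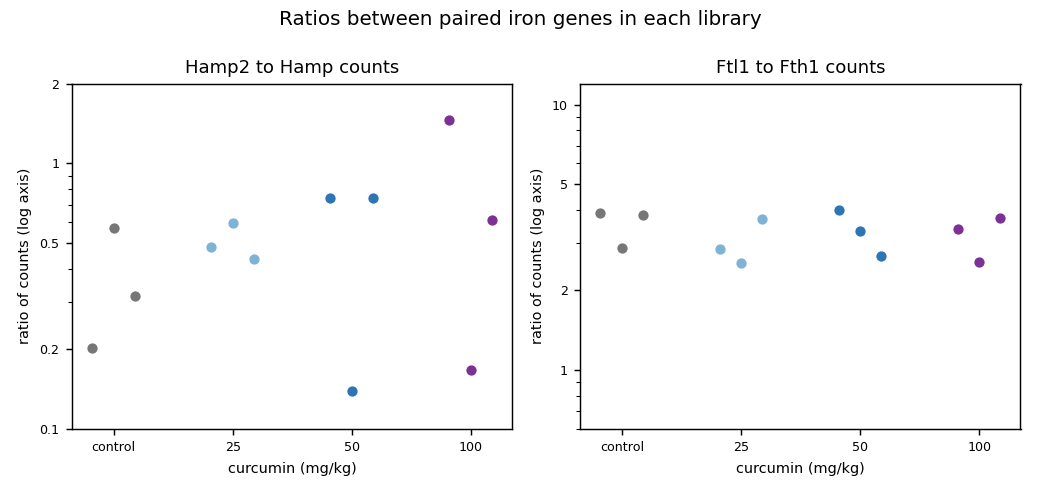
Ratio of Hamp2 to Hamp counts and of Ftl1 to Fth1 counts in each library, on log axes that differ in range, for controls and 3 curcumin doses (3 points each). The hepcidin ratio runs from 0.139 to 1.46 and the ferritin ratio from 2.52 to 4.

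Of 66 other genes in 6 iron lists, 63 were tested and 0 passed the adjusted threshold in any comparison (edgeR), with a smallest adjusted p of 0.32, for Il6ra at the high dose. At an unadjusted p under 0.05 they numbered 1 higher and 5 lower at the low dose, against 2.49% and 3.5% of all genes, 2 and 5 at the medium dose, against 2.59% and 2.99%, and 5 and 3 at the high dose, against 7.87% and 4.91%. Il6 itself, which signals inflammation to hepcidin, had 0 to 7 counts per library and was not tested, nor were Erfe and Ftmt.

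Among 8 tested genes of the interleukin-6 and STAT3 arm, the median log2 fold change was -0.35, -0.19 and -0.19 from low to high dose. Il6ra, the receptor for interleukin-6, was 28.9, 26.3 and 28.1 CPM at the medium dose and 19.4, 21 and 30.3 CPM at the high dose, against 7.98, 7.72 and 9.63 CPM in controls. All libraries of every dose lay above the controls. Its log2 fold change was 0.84, 1.72 and 1.48 from low to high dose, with adjusted p of 0.8, 0.353 and 0.32 by edgeR. DESeq2 gave adjusted p of 0.000504 at the medium and 0.00617 at the high dose, and limma voom 0.0238 and 0.0249. With the mitochondrial share as a covariate the Il6ra values were 1.60 at the medium and 1.22 at the high dose (adjusted p = 0.0789 and 0.29, edgeR). Socs3, a feedback inhibitor of STAT3 that it induces, was 4.87, 10.2 and 5.01 CPM at the high dose and 17, 14.4 and 21.8 CPM in controls, with no overlap (log2 fold change -1.41 ± 0.43, adjusted p = 0.371, edgeR, and 0.0437 by limma voom). With the mitochondrial share as a covariate the Socs3 value was -0.81 (adjusted p = 0.549, edgeR). In the 8 libraries with a share of at least 50% it was -0.80. Log2 fold changes were -0.69, -0.40 and -0.44 for Stat3 and, for Il1b, an inflammatory cytokine, -1.60, -1.71 and -0.85 from low to high dose. Summed markers of neutrophils were 6.08 to 7.4 CPM at the high dose and 10.4 to 40 CPM in controls, and those of Kupffer cells 58 to 61.8 CPM at the high dose and 61.7 to 143 CPM in controls. Control replicate 2 held the highest neutrophil, Kupffer cell and Il1b levels, with Il1b at 3.58 CPM against 1.46 and 0.869 CPM in the other controls, and without it the Il1b values were -0.83 at the low and -0.95 at the medium dose. The part of these cells in the Il1b values was not tested. Of 12 acute phase genes of hepatocytes, 2, 5 and 11 were above 0 from low to high dose, with medians of -0.32, -0.09 and 0.37, and their summed level was 2880.3, 714 and 1395 CPM at the high dose, against 1133, 1363 and 1116 CPM in controls.

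In the BMP and SMAD arm 17 genes were tested, and the median log2 fold change was -0.02, -0.07 and 0.23 from low to high dose. Of the 17, 8, 6 and 15 were above 0 from low to high dose, against 51.1%, 51.9% and 52.2% of all genes. Hjv, the BMP co-receptor hemojuvelin that hepcidin expression needs, was 14.7, 34.1 and 15.6 CPM at the high dose and 36.7, 49.5 and 74.6 CPM in controls. The groups did not overlap, and the log2 fold change was -1.32 ± 0.45 (adjusted p = 0.375, edgeR, and 0.0476 by limma voom). With the mitochondrial share as a covariate it was -0.72 (adjusted p = 0.623, edgeR), and in the 8 libraries with a share of at least 50% it was -0.65 (adjusted p = 0.702, edgeR). Smad6, an inhibitory SMAD that BMP signals induce, stood at 0.657, 0.5 and 0.839 times its control level from low to high dose. Log2 fold changes were 0.51, 0.23 and 0.67 for Bmpr2, a type II receptor, and 0.51, 0.25 and 0.50 for Neo1, a partner of hemojuvelin. Without high replicate 1 the high-dose value of Bmpr2 was 0.32. The lowest adjusted p among the 17 was 0.375 (edgeR).

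Among 6 tested genes of iron regulatory proteins and ferritin turnover, medians were 0.16, 0.19 and 0.43 on the log2 scale from low to high dose. Ireb2, an iron regulatory protein, had log2 fold changes of -0.60, -0.46 and -0.41 (adjusted p = 0.813, 0.996 and 0.484, edgeR), with all dose libraries below all controls. At each dose taken alone, 6.36%, 6.38% and 6.52% of all genes lay below the controls in this way. Control replicate 1 stood at 37.4 CPM, against 23.9 and 25.1 CPM in the other controls. Without it the Ireb2 values were -0.37 at the low and -0.22 at the medium dose. Ncoa4, the receptor that delivers ferritin for breakdown, had log2 fold changes of 0.36, 0.52 and 0.68, and Pcbp1, a chaperone that loads ferritin with iron, 0.14, 0.26 and 0.82. The high-dose value of Ncoa4 was 0.20 with the mitochondrial share as a covariate. In the 8 libraries with a share of at least 50% it was 0.15. Without high replicate 1 the high-dose value of Pcbp1 was 0.30.

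Among 11 uptake and oxidation genes, median log2 fold changes were 0.04, -0.12 and 0.58 from low to high dose. Slc39a14, the main importer of iron not bound to transferrin in hepatocytes, was 111, 172 and 147 CPM at the medium dose and 76.8, 76.9 and 76.9 CPM in controls, without overlap (log2 fold change 0.90 ± 0.31, adjusted p = 0.719, edgeR). Slc39a8, a related importer, had a log2 fold change of 1.25 ± 0.49 at the high dose, where replicates 1 and 3 stood at 5.98 and 4.99 CPM and replicate 2 at 1.15 CPM, against 1.37 to 2.25 CPM in controls. Lcn2, a siderophore-binding protein, had log2 fold changes of -1.54, 1.55 and 0.65 from low to high dose, with adjusted p from 0.732 to 0.944 (edgeR). Ltf, lactoferrin of neutrophil granules, was at 0 in all medium-dose libraries and averaged 0.13 CPM in controls, too low for a fold change.

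Among 9 genes of mitochondrial iron use, median log2 fold changes were 0.17, -0.03 and -0.01 from low to high dose. Iscu, the scaffold of iron-sulfur clusters, had log2 fold changes of 0.85, 0.46 and 1.45 (adjusted p = 0.371 at the high dose, edgeR), and Fech, which inserts iron into haem, 0.02, -0.27 and -0.25. Iscu stood at 40.1, 10.8 and 13.7 CPM at the high dose and at 9.44, 8.5 and 5.68 CPM in controls, and its high-dose value was 0.64 without high replicate 1, 0.56 with the mitochondrial share as a covariate and 0.45 in the 8 libraries with a share of at least 50%. Among 12 genes of haem and haemoglobin recycling these medians were -0.08, 0.03 and 0.36. Hmox1, the inducible haem oxygenase, had log2 fold changes of -0.55, -0.91 and -0.12, Hmox2, its constitutive relative, -0.08, 0.17 and 0.97, and Abcg2, a transporter that can export porphyrins, 0.51, 0.33 and 0.25. Without high replicate 1 the high-dose value of Hmox2 was 0.64. Hmox1 stood at 5.23 CPM in control replicate 2, against 2.09 and 2.65 CPM in the other controls. Its medium-dose value was -0.42 without that library. Spic, a factor of iron-recycling macrophages, had log2 fold changes of -1.13, -1.06 and -1.06, and of -0.43, -0.36 and -0.36 without control replicate 2, which stood at 2.81 CPM against 1.21 and 0.78 CPM in the other controls. The 7 Kupffer cell markers, highest in the same library, had medians of -1.10, -1.09 and -0.76. Summed erythroid markers ran from 119.5 to 1396 CPM over the 12 libraries. The part of these cells in the values was not tested.

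Likeness to a gene was measured as the mean absolute difference of centred log2 CPM over the 12 libraries, among the 9095 genes whose log2 CPM averaged 1 or more. The 5 genes most like Hamp were Acot2 (0.36), Cyp2c54 (0.38), Slc25a21, Agt and Cyp2c37 (0.41 each), against a median of 0.92 over the genes searched. Those most like Bmp6 were Mzt2 (0.35), Swi5 and Bgn (0.37 each) and Dcxr and Mrpl14 (0.38 each), against a median of 0.82.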

How the data were processed

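The authors deposited 1 table of raw gene counts, whole numbers not normalized, with 1 column per library. All 12 columns matched a label. The genome build was mm39, and STAR 2.7.10b, StringTie 2.2.1 and fastp 0.23.4 were used, according to the submitters' processing notes. The counting step, its use of strand and its treatment of reads that fit several genes are not given in the sources used here. GENCODE M21 and RefSeq GRCm38.p6 belong to an older build and gave names, transcripts and promoter sequences, not positions for the counts. Of 56923 identifiers 91.5% had a symbol, and those without one held 0.812% of counts.

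Counts were tested in R 4.3.3 with edgeR 4.0.16 (filterByExpr, TMM, robust quasi-likelihood, all 12 libraries in 1 fit), each dose against control and a slope over 100 mg/kg, with Benjamini-Hochberg adjustment over 16839 genes. DESeq2 1.42.0 and limma 3.58.1 were alternatives, as were other scales, no filter, other sets of libraries, a covariate and a replicate block. Correlations used 100000 permutations. Near-identical copies came from BLAST+ 2.17.0 (at least 95% identity over 80% of length) and the promoter alignment from MAFFT 7.526. With 3 counts worth 0.0755 CPM in control replicate 1, lower levels are uncertain. Replicates are separate mice per the labels.

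The 10 genes and all lists were chosen with earlier results of these data known. From each other list, the 2 genes with the smallest p per dose are named, except 1 that is not reported here. In simulated counts the test recovered 12% of the changes at 2-fold and 68% at 4-fold for the low dose (16127 genes, 9 false calls). For the medium dose these were 10% and 74% (16003 genes, 8 false calls). For the high dose they were 4% and 90% (15939 genes, 8 false calls). Whether these percentages hold for the 10 genes in the measured libraries, where much of the spread ran with the mitochondrial share, was not tested. At the high dose Hamp2 stood at 3.73 times its control level, with an adjusted p of 0.441 (edgeR). The 95% interval of its log2 fold change ran from -0.38 to 4.18.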

Additional observations from a re-analysis of the deposited data

How the results depend on the processing

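None of the 10 iron genes passed an adjusted p of 0.05 in any of the 4 comparisons under any alternative run. Of 702 recomputed log2 fold changes of the 10 genes (40 values), 624 kept their direction and 78 changed sign, 24 of these on leaving out 1 library. The values that never changed sign numbered 10 of 40. Among the 542 of the other iron genes (34 values), 4 changed sign and 8 passed the threshold. Those 8 were values of Il6ra, Socs3 and Hjv. The cause of each change was not tested. With library totals as scale, which moves the median of all genes by 0.11, 0.47 and 0.71 from low to high dose and by 0.75 for the slope, the log2 values that changed sign were, at the low dose Hamp 0.04, at the medium dose Fech 0.16, Fth1 0.24, Ftl1 0.29, Slc40a1 0.41, Tfr2 0.22, Trf 0.31, at the high dose Slc11a2 0.67, Slc40a1 0.66, for the slope Slc11a2 0.60, Slc40a1 0.65, Tfr2 0.13. With totals without mitochondrial genes and copies these were, at the low dose Slc40a1 -0.07, Tfrc -0.04, at the medium dose Slc11a2 -0.07, at the high dose Hamp -0.08. With the counts of Hamp and Hamp2 summed, a value for both genes together, the sign opposite to that of Hamp2 alone was, at the low dose Hamp2 -0.19. With limma voom they were, at the low dose Hamp2 -0.18, Tfrc -0.07, at the medium dose Bmp6 -0.33, Hamp -0.22, Hamp2 -0.27. With the mitochondrial share as a covariate they were, at the low dose Bmp6 -0.02, Hamp2 -0.26, at the medium dose Hamp -0.39, Hamp2 -0.04, at the high dose Ftl1 -0.20, Hamp -0.88, Hamp2 -0.97, Pcbp1 -0.04, Trf -0.45, for the slope Fth1 -0.11, Ftl1 -0.44, Hamp -0.69, Hamp2 -0.95, Trf -0.56. In the 8 libraries with a share of at least 50%, a setting chosen after seeing the data, they were, at the low dose Bmp6 -0.05, Hamp2 -0.34, Slc40a1 -0.03, Tfrc -0.23, at the medium dose Bmp6 -0.44, Hamp -0.68, Hamp2 -0.73, Tfr2 0.01, at the high dose Fth1 -0.20, Ftl1 -0.62, Hamp -0.79, Hamp2 -1.55, Pcbp1 -0.10, Slc39a8 -0.57, Tfr2 0.02, Trf -0.82, for the slope Fth1 -0.58, Ftl1 -0.93, Hamp -0.80, Hamp2 -1.53, Tfr2 0.08, Trf -0.95. Leaving out 1 library in turn gave log2 ranges, at the low dose Bmp6 -0.04 to 0.64, Hamp -1.20 to 0.43, Hamp2 -0.32 to 0.72, Slc40a1 -0.02 to 0.17, Tfrc -0.21 to 0.35, at the medium dose Bmp6 -0.45 to 1.28, Fth1 -0.49 to 0.05, Hamp -0.69 to 1.05, Hamp2 -0.74 to 1.75, Slc11a2 -0.04 to 0.12, Slc40a1 -0.13 to 0.06, Trf -0.67 to 0.09, at the high dose Hamp -0.13 to 1.04, Slc11a2 -0.11 to 0.04, Slc40a1 -0.17 to 0.04, for the slope Fth1 -0.23 to 0.80, Ftl1 -0.18 to 0.93. Values of at least 0.30 in size that kept their sign but moved by over 1.5 times ran, at the low dose Trf 0.04 to 0.62, Fth1 0.59 to 1.20, at the medium dose Tfrc 0.23 to 0.75, at the high dose Hamp2 0.79 to 2.44, Trf 0.29 to 1.44, Tfrc 0.17 to 0.52, Tfr2 -0.95 to -0.29, Fth1 0.21 to 1.20, Ftl1 0.14 to 1.23, for the slope Hamp 0.15 to 0.98, Hamp2 1.05 to 2.53, Trf 0.10 to 1.25, Tfrc 0.22 to 0.57, Tfr2 -0.79 to -0.18. Single libraries decided the sign of Hamp2 (low replicate 3 at the low dose, medium replicate 1 at the medium dose) and of Bmp6 (the same 2), and without high replicate 1 the slopes of Fth1 and Ftl1 fell below 0.

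Over all genes edgeR called 0 at each dose and for the slope. DESeq2, run on all genes with counts, called 32, 86 and 161 from low to high dose and 60 for the slope, of which 159 at the high dose and 59 for the slope were among the 16839 genes. The calls of limma voom were 35 at the medium and 224 at the high dose, and those of edgeR on only the 2 groups compared were 1 at the low and 8 at the medium dose. In the 8 libraries edgeR called 3, 7 and 6 genes from low to high dose and 1 for the slope. Leaving out 1 library gave 0 to 2 genes at the low dose (2 without low replicate 3) and 0 elsewhere.

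Replicate numbers are shared between groups. Of 18 pairs of same-numbered libraries, with correlations from -0.257 to 0.445, 5 exceeded 0.1, and 6 of 12 libraries were closest to their own number. Whether same-numbered libraries deviate together was not tested. With the replicate block 0 genes were called in each comparison, and Hamp2 had 1.03 and Bmp6 1.48 at the high dose.

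Bmp6, at 3 to 125 counts per library, had the least depth of the 10 genes. With 3 libraries a group the simulated test recovered few 2-fold changes.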
